A study of Mus musculus with 30 samples.

Results

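The genes described here are 41 interferon-stimulated and antigen-processing genes, taken by name from the 18194 genes that the arrays of this series measured in mouse embryonic fibroblasts. Of these, 39 had a probe set with a single gene symbol, and where a gene had several, the one with the highest mean signal across the 30 arrays stood for it. They comprised 33 antiviral genes and 6 antigen-processing genes (Tap1, Tap2, Tapbp, Psmb8, Psmb9 and Psmb10). Isg15 and Ifi44 are not analysed here. A filter removed the lowest 40% of probe sets by mean over all arrays, at a log2 value of 4.544, and 37 members passed it, 31 antiviral and 6 antigen-processing. Mx1 (mean log2 value 4.195) and Cmpk2 (4.45) lay below it, and Oas3 (4.548) and Dhx58 (4.575) lay just above.

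The fibroblasts came from E13.5 embryos of C57BL/6 x 129SvJ mice with p53 LSL/LSL alleles, in which p53 stays silent until Cre removes a stop cassette. In the time course (10 arrays) cells received AdenoGFP, the control virus, or AdenoCRE, which restores p53, for 24 h and then 500 nM doxorubicin, which damages DNA, for 1, 3, 6 or 9 h, with untreated cells as 0 h and 1 array per virus and time. In the lincP21KD experiment (8 arrays) all cells received AdenoCRE, then siRNA against p53 (siP53, 3 arrays), against lincRNA-p21 (siLincp21, 3 arrays) or a non-targeting pool (2 control arrays) for 24 h, and then 100 nM doxorubicin for 13 h. The hnRNPKKD experiment (12 arrays) had the same protocol, with siP53, siLincp21, siRNA against the RNA-binding protein hnRNP-K (siHnrnpk) and control siRNA, 3 arrays each. Every cell was infected with an adenovirus, and no group had Cre without p53, so in the time course the return of p53 and any other effect of Cre or of either virus cannot be told apart. The labels do not say whether arrays of a group came from separate cultures, so the p-values measure the spread between these arrays, which may be technical.

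Cells that sense viral nucleic acid secrete type I interferon, which acts through its receptor on STAT2, IRF9 and a further STAT factor. That complex binds the interferon-stimulated response element (ISRE) of antiviral genes. Fibroblasts are a classic source and target of type I interferon. Type II interferon acts through the gamma-activated site (GAS) and IRF1, and raises the genes that prepare peptides for MHC class I: the inducible proteasome subunits Psmb8, Psmb9 and Psmb10, the peptide transporter subunits Tap1 and Tap2, and Tapbp (tapasin), which holds the transporter at class I molecules. Tap1 has also been described as a gene that p53 activates.

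The promoters were searched because both groups are known interferon targets and many antiviral members moved in the same direction. RefSeq promoter windows (GRCm38.p6, 250 bases before to 50 after a start) were available for 28 of the 39 members. The ISRE core was searched as GAAA, any 2 bases, GAAA, and the GAS core as TTC, any 3 bases, GAA, on both strands, with no shared letters required between them. The ISRE core lay in the windows of 12 of 23 antiviral genes (52.2%) and of 0 of 5 antigen-processing genes, against 3.39% of 10232 tested genes with a window and 3.44% of all 32851 windows. The GAS core lay in 6 of 23 antiviral genes (26.1%) and 1 of 5 antigen-processing genes (20%, Psmb8), against 8.08% of tested genes and 8.3% of all windows. A match is a description of these letters, and its absence says only that they are not in the window. The 3 largest virus effects were those of Ifit1, Rtp4 and Oasl2, and Rtp4 has no entry in the promoter table. The 4 windows below are those of Ifit1 and Oasl2, one with and one without the core, and of the divergent pair Tap1 and Psmb9, with ISRE cores in capitals.
Ifit1, chr19:34640639-34640938, plus strand, 2 ISRE cores: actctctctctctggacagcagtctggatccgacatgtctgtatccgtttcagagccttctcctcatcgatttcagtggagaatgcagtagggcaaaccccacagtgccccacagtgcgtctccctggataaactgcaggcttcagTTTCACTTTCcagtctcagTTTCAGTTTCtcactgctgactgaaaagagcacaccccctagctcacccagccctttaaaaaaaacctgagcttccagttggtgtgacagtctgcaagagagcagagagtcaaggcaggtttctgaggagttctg
Oasl2, chr5:114896684-114896983, plus strand, no core: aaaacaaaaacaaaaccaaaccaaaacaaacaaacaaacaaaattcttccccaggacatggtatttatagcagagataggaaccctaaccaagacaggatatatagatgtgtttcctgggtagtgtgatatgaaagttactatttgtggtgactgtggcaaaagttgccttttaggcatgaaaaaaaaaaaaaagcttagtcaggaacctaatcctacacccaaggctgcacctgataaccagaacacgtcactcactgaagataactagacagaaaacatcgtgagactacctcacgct
Tap1, chr17:34187306-34187605, plus strand, no core: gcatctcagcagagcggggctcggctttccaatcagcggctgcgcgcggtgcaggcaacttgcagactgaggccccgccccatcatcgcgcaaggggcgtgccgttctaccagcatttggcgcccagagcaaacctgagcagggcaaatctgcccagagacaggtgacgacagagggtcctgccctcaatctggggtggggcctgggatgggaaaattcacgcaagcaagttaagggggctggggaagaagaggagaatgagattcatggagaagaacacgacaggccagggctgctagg
Psmb9, chr17:34187281-34187580, minus strand, no core: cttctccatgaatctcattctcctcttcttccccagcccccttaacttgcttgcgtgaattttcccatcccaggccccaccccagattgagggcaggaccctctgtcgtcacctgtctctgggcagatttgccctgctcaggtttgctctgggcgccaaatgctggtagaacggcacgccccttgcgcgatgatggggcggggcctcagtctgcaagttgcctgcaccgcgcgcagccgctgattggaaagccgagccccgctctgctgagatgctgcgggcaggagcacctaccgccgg

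Tap1 and Psmb9 lie head to head, and their windows share 275 of 300 bases, read on opposite strands. With no other protein-coding gene between neighbours, Psmb9, Tap1, Psmb8 and Tap2 follow each other on chromosome 17. Each of these 4 neighbours had a probe set above the filter, and their values differ as described below.

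Over all probe sets the array medians ran from 4.976 to 5.032 in the time course, 5.546 to 5.656 in lincP21KD and 4.832 to 4.914 in hnRNPKKD, and levels were not compared across experiments. Cdkn1a, the cell cycle inhibitor that p53 activates, was higher with AdenoCRE by 3.85 ± 0.15 (SE) on the log2 scale and lower with siP53 by -2.07 ± 0.11 in lincP21KD and -2.64 ± 0.18 in hnRNPKKD. Hnrnpk was lower with siHnrnpk by -3.51 ± 0.35, and least so in array 3. All 10 fibroblast markers (collagens, Pdgfra, Vim and others) lay above the filter, and 5 of 6 endothelial and 4 of 10 macrophage markers lay below it.

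With AdenoCRE, antiviral genes were lower than with AdenoGFP at matched times, and the antigen-processing genes were not lower as a group. Of 31 antiviral genes, 19 fell and 0 rose at an adjusted p below 0.05 in limma, where 6.24% of all 12674 tested genes fell and 12.9% rose. Higher calls made up 67.4% of all calls as deposited, 45.2% once each array was centred on its median and 51.5% under quantile scaling, and no member's call turned direction under either. In the same test 24 antiviral genes had an unadjusted p below 0.05 in either direction. The median difference over the 31 genes was -0.59 on the log2 scale, against 0.04 over all tested genes. At 0, 1, 3, 6 and 9 h that median was -0.65, -0.61, -0.47, -0.57 and -0.68, so the difference was present before doxorubicin. In bulk RNA such as this, fewer cells that express a gene and less RNA per cell cannot be told apart. Of the 31 genes, 20 were lower at every one of the 5 times (11.1% of all tested genes), and 16 had all 5 AdenoCRE arrays below all 5 AdenoGFP arrays (2.59% of all tested genes). The reverse held for 0 of the 31 (7.34% of all tested genes).

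Ifit1 codes for a protein that binds viral RNA lacking host cap marks. Its log2 values at 0, 1, 3, 6 and 9 h were 6.75, 7.30, 6.89, 6.69 and 7.05 with AdenoGFP and 5.10, 5.82, 5.73, 4.81 and 5.58 with AdenoCRE. The groups did not overlap, and the gene fell by 1.53 ± 0.11 (SE, 5 pairs; adjusted p = 0.000234). Rtp4, a receptor-transporting protein induced by interferon, read 8.11, 8.41, 8.08, 8.45 and 8.60 with AdenoGFP and 6.33, 7.08, 6.94, 6.54 and 7.23 with AdenoCRE. It too was lower in every AdenoCRE array than in any AdenoGFP array, and fell by 1.51 ± 0.12 (adjusted p = 0.00043).

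Oasl2, of the oligoadenylate synthetase family, read 6.24, 6.62, 6.38, 6.52 and 6.69 with AdenoGFP and 4.69, 4.91, 5.15, 5.13 and 5.11 with AdenoCRE, a fall by 1.49 ± 0.09 (adjusted p = 0.000153). Iigp1, an interferon-inducible GTPase, read 4.92, 4.98, 4.75, 5.38 and 5.10 with AdenoGFP and 4.09, 3.42, 3.81, 3.59 and 3.91 with AdenoCRE. Its AdenoCRE values all lay under the filter limit of 4.544, and the fall by 1.26 ± 0.15 (adjusted p = 0.00184) starts from a low level. Both genes were without overlap between the viruses.

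By role, 2 of 3 Ifit genes fell (Ifit1, Ifit3), as did 2 of 5 oligoadenylate synthetase genes (Oasl1, Oasl2), 3 of 5 GTPases (Iigp1, Igtp, Gbp2) and 2 of 3 genes of the Mx2, viperin (Rsad2) and tetherin (Bst2) set. All 5 measured genes of the Usp18, Trim25, Parp9, Parp14 and Dtx3l set fell, with differences between -1.20 and -0.45. Dtx3l, the ubiquitin ligase partner of Parp9, read 7.16, 7.33, 7.10, 7.64 and 7.64 with AdenoGFP and 6.49, 6.71, 6.29, 6.95 and 6.96 with AdenoCRE (-0.69 ± 0.08, adjusted p = 0.00162). Rsad2, the antiviral enzyme viperin, fell by 0.82 ± 0.09 (adjusted p = 0.00178). Of the 4 transcription factors, Irf9, Stat2 and Irf7 fell and Irf1 had a difference of -0.21 ± 0.11 (adjusted p = 0.231). Of the 19 falls, that of Oasl1 was lost without 3 h or 6 h, that of Bst2 without any time but 1 h, and that of Irf7 without 0 h, 3 h or 9 h. Those of Irf7 and Usp18 were lost without the time block. Irf9, the DNA-binding part of the interferon complex, read 8.03, 8.0, 7.74, 7.47 and 7.92 with AdenoGFP and 6.91, 7.0, 6.96, 6.87 and 7.12 with AdenoCRE, and fell by 0.86 ± 0.10 (adjusted p = 0.00164). None of the 3 sensors (Ifih1, Dhx58, Zbp1) passed the test in limma, where 2 of them had an unadjusted p below 0.05. Irgm1, a GTPase, was the antiviral gene with the highest difference, 0.36 ± 0.12 (adjusted p = 0.0664).

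**Figure D1:**
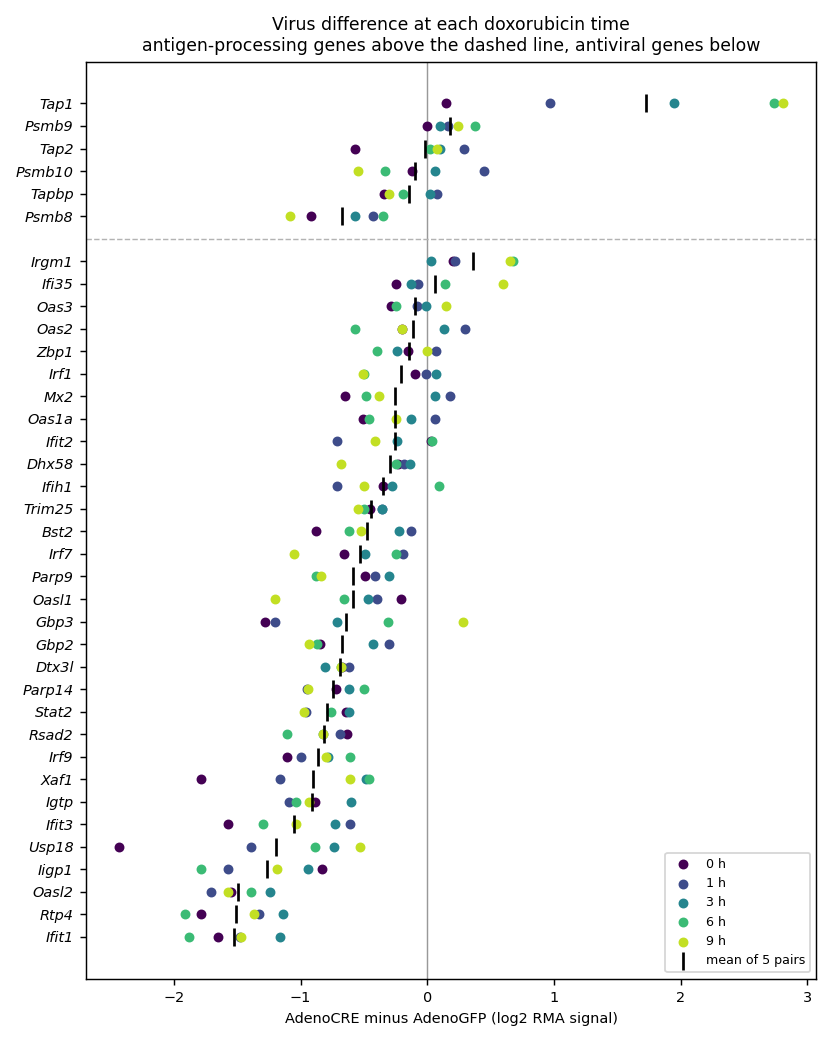
Difference between AdenoCRE and AdenoGFP (log2 RMA signal, x axis) at each doxorubicin time for the 37 tested members (rows), with the mean of the 5 pairs as a bar. Most antiviral genes sit left of 0 at every time, Tap1 moves from 0.15 at 0 h to 2.81 at 9 h, Psmb8 lies left of 0, and Tap2, Tapbp and Psmb10 lie on both sides of it.

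The 6 antigen-processing genes did not move together with the virus: Tap1 rose, Psmb8 fell and 4 did not pass the test (19.1% of all tested genes were called in either direction). Tap1 read 6.24, 6.02, 6.13, 6.41 and 6.39 with AdenoGFP and 6.39, 6.99, 8.08, 9.15 and 9.19 with AdenoCRE at 0, 1, 3, 6 and 9 h. The viruses started close together and drew apart, with the AdenoCRE array at 0 h inside the AdenoGFP range. The mean difference was 1.73 ± 0.36 (adjusted p = 0.0151), and it was not called without the 3 h pair (adjusted p = 0.0513). The other 3 Tap1 probe sets had means of 4.22, 3.48 and 3.27, under the filter, and differences of 0.40, 0.01 and 0.06.

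Psmb8 read 7.06, 6.85, 7.22, 6.67 and 7.15 with AdenoGFP and 6.14, 6.42, 6.65, 6.32 and 6.07 with AdenoCRE. The groups did not overlap, and it fell by 0.67 ± 0.12 (adjusted p = 0.00917). Psmb9, which shares its promoter window with Tap1, read 4.68, 4.70, 4.8, 4.74 and 4.82 with AdenoGFP and 4.68, 4.87, 4.90, 5.13 and 5.06 with AdenoCRE, a difference of 0.18 ± 0.09 (adjusted p = 0.188) at a level near the filter.

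Psmb10 read 8.40, 8.19, 8.51, 8.57 and 8.90 with AdenoGFP and 8.28, 8.65, 8.56, 8.24 and 8.34 with AdenoCRE. Tap2 read 6.37, 6.25, 6.12, 5.89 and 5.97 with AdenoGFP and 5.80, 6.54, 6.21, 5.90 and 6.04 with AdenoCRE. Tapbp read 9.79, 9.73, 9.89, 10.05 and 10.21 with AdenoGFP and 9.45, 9.81, 9.90, 9.86 and 9.91 with AdenoCRE. For these 3 genes the viruses overlapped and the differences lay between -0.15 and -0.02. The constitutive catalytic subunits Psmb5, Psmb6 and Psmb7 had differences between -0.02 and 0.05, and 0 of 3 passed the test in limma (0 of 3 at an unadjusted p below 0.05).

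Trends over the hours of doxorubicin were tested within each virus. In AdenoGFP 0 of 37 members passed (0.00789% of all tested genes did), with 6 antiviral and 2 antigen-processing genes at an unadjusted p below 0.05 in limma. In AdenoCRE 5 of 31 antiviral genes and Tap1 rose, where 3.95% of all tested genes rose and 1.45% fell. The Tap1 slope was 0.32 ± 0.04 log2 units per hour (adjusted p = 0.00248). Usp18, which removes Isg15 from proteins and restrains interferon signalling, read 4.88, 5.89, 6.74, 7.12 and 7.51 with AdenoCRE, a slope of 0.26 ± 0.04 (adjusted p = 0.00673). With AdenoGFP it read 7.31, 7.28, 7.49, 8.0 and 8.04, so the difference between the viruses went from -2.43 at 0 h to -0.53 at 9 h.

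Xaf1, a partner of the apoptosis inhibitor XIAP, read 6.32, 7.16, 7.49, 7.73 and 7.89 with AdenoCRE (slope 0.15 ± 0.03, adjusted p = 0.0363). Its other probe set, with a mean of 6.16, had a slope of 0.01. Gbp3, a guanylate-binding protein, read 4.50, 4.24, 4.61, 4.94 and 5.70 (slope 0.14 ± 0.03, adjusted p = 0.0142), and Ifi35 read 10.35, 10.70, 10.75, 11.42 and 11.57 (slope 0.14 ± 0.02, adjusted p = 0.0111). Parp14, an ADP-ribosyltransferase, was the other gene that rose, with a slope of 0.08 ± 0.02 (adjusted p = 0.0483). Its call was lost under 10 of 12 alternatives and that of Xaf1 under 7 of 13, in both genes whichever time was left out. Gbp3 was lost without 1 h or 9 h and Ifi35 without 0 h or 1 h. Leaving out 1 time at a time left 2 antiviral genes called without 0 h or 9 h, 1 without 1 h, and 3 without 3 h or 6 h. The difference between the slopes passed for 0 of 37 members in limma (0.181% of all tested genes), with 7 antiviral and 2 antigen-processing genes at an unadjusted p below 0.05. For Tap1 that difference was 0.29 ± 0.06 (adjusted p = 0.108), and on the log2 of hours plus 1 in place of hours it passed.

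**Figure D2:**
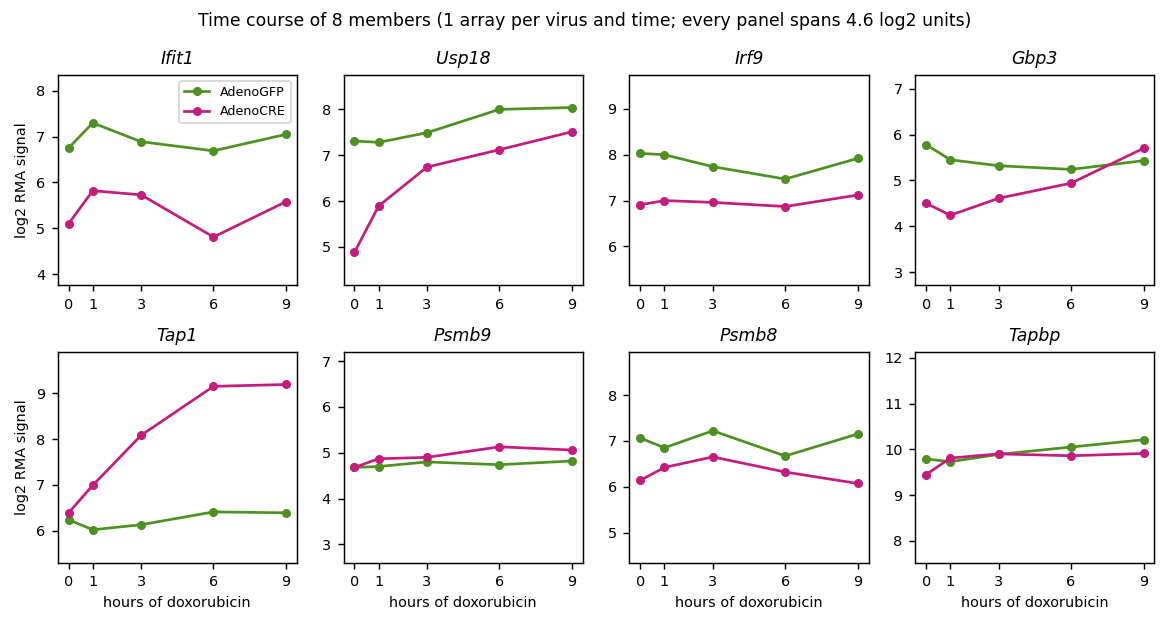
Log2 RMA signal (y axis) against hours of doxorubicin (x axis) for 4 antiviral and 4 antigen-processing genes, 1 array per point. Ifit1 and Irf9 stay lower with AdenoCRE at all 5 times, Usp18 climbs from 4.88 to 7.51 with AdenoCRE, and Tap1 climbs from 6.39 to 9.19 while Psmb9 stays between 4.68 and 5.13.

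In the lincP21KD experiment the antiviral genes were higher after siP53 than after control siRNA. Of 31 antiviral genes 23 rose and 0 fell, where 7.01% of all tested genes rose and 5.74% fell, and 26 had an unadjusted p below 0.05 in limma. Their median difference was 0.85, against 0.02 over all tested genes. In 26 of them all 3 siP53 arrays lay above both control arrays (25.1% of all tested genes did). The count rests on the control arrays: without control array 2 it was 9. In control array 1, 23 of the 31 genes were the higher of both, and in siP53 array 1, 26 of 31 were the lowest of the 3, where 42.5% and 33.6% of all tested genes were.

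Ifit1 read 5.53 and 6.00 in the controls and 7.69, 8.48 and 8.43 after siP53, and it rose by 2.43 ± 0.22 (adjusted p = 0.000114). Ifit3, a partner of Ifit1, read 7.05 and 7.20 in the controls and 8.93, 9.20 and 9.46 after siP53 (2.07 ± 0.14, adjusted p = 2.27e-05). Oasl2 read 4.91 and 4.38 in the controls and 5.76, 6.76 and 6.99 after siP53 (1.86 ± 0.30, adjusted p = 0.00326). For these genes the siP53 arrays all lay above the controls by more than the gap between the controls.

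Rtp4 read 8.03 and 7.82 in the controls and 9.17, 9.64 and 10.09 after siP53 (1.71 ± 0.21, adjusted p = 0.000632). Iigp1 read 4.98 and 4.89 in the controls and 6.02, 6.44 and 6.45 after siP53 (1.37 ± 0.15, adjusted p = 0.00037), and Usp18 read 5.17 and 4.83 against 6.34, 6.43 and 7.03 (1.60 ± 0.21, adjusted p = 0.000941). Again no siP53 array fell within the control range. Ifih1, the cytosolic sensor MDA5, read 5.38 and 5.6 in the controls and 6.46, 6.42 and 6.93 after siP53 (1.12 ± 0.17, adjusted p = 0.00205). Irf7, a factor that amplifies interferon production, rose by 0.68 ± 0.12 (adjusted p = 0.0052), and Rsad2 by 0.59 ± 0.11 (adjusted p = 0.00654). The other Rsad2 probe sets had differences of 0.18 and 0.16. By role, all 5 GTPases, all 5 genes of the Usp18 and Parp set and all 4 transcription factors rose, as did 2 of 3 Ifit genes, 2 of 3 sensors and 1 of 5 oligoadenylate synthetase genes. Oas2, with -0.14 ± 0.10 (adjusted p = 0.412), had the only negative difference among the 31.

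Of the antigen-processing genes, Tap1 fell and Psmb8 and Tapbp rose (12.7% of all tested genes were called in either direction). Tap1 read 7.40 and 7.73 in the controls and 6.44, 6.6 and 6.55 after siP53, a fall by 1.04 ± 0.11 (adjusted p = 0.000318). With the mean of its 4 probe sets in its place the value was -0.20 (adjusted p = 0.092). Psmb8 read 4.61 and 4.71 in the controls and 5.04, 5.15 and 5.44 after siP53 (0.55 ± 0.11, adjusted p = 0.00967), and it was not called without control array 1, when 0 antigen-processing genes were called higher. Tapbp read 10.50 and 10.44 in the controls and 10.76, 10.93 and 11.09 after siP53 (0.46 ± 0.12, adjusted p = 0.0363), a call lost under 7 of 16 alternatives, among them leaving out either control array, siLincp21 array 1, or siP53 array 2 or 3. Psmb9 read 5.40 and 5.25 against 5.65, 5.44 and 5.40, Psmb10 8.97 and 9.06 against 9.16, 9.17 and 9.26, and Tap2 4.74 and 4.63 against 4.8, 4.8 and 4.83. These 3 genes had differences between 0.13 and 0.18 and did not pass the test.

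In the hnRNPKKD experiment more antiviral genes rose than fell with siP53, and Tap1 was again lower. Of 31 antiviral genes 10 rose and Ifi35 fell, where 19.3% of all tested genes rose and 19.2% fell, with a median of 0.51 against -0.01 over all tested genes. In 15 of them the 3 siP53 arrays lay above the 3 controls (21.2% of all tested genes). Ifit1 read 6.51, 7.50 and 6.95 in the controls and 8.15, 8.53 and 8.70 after siP53, and rose by 1.47 ± 0.38 (adjusted p = 0.00763). Rsad2 read 5.43, 5.66 and 5.38 in the controls and 6.4, 6.41 and 6.95 after siP53 (1.09 ± 0.21, adjusted p = 0.00145). The other Rsad2 probe sets, with means of 4.96 and 4.39, had smaller differences of 0.28 and 0.16.

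Iigp1 read 4.26, 4.87 and 4.26 in the controls and 5.25, 5.71 and 5.66 after siP53 (1.08 ± 0.27, adjusted p = 0.00706). Ifit2, a relative of Ifit1, read 8.46, 8.26 and 8.31 in the controls and 9.48, 9.13 and 9.62 after siP53 (1.07 ± 0.15, adjusted p = 9.96e-05). Irf1, the factor that carries much of the type II interferon response, read 8.02, 8.46 and 8.14 in the controls and 8.99, 9.15 and 8.91 after siP53 (0.81 ± 0.11, adjusted p = 0.000124). None of these genes overlapped with its controls. Oasl2 rose by 1.04 ± 0.35 (adjusted p = 0.0327) and Dtx3l by 0.79 ± 0.19 (adjusted p = 0.0052). Oasl2 read 4.08, 4.21 and 4.42 in the controls, all under the filter limit, and 4.81, 5.64 and 5.38 after siP53. Its call was lost under 6 of 19 alternatives, among them leaving out any control array or siP53 array 2 or 3.

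Ifi35, an interferon-induced leucine zipper protein, read 12.07, 11.96 and 12.11 in the controls and 11.30, 11.58 and 11.50 after siP53, and fell by 0.59 ± 0.12 (adjusted p = 0.00136). Its other 2 probe sets had differences of -1.12 and -0.92. The siP53 arrays differed from each other in several antiviral genes: Usp18 read 6.4, 8.25 and 6.65, Bst2 7.56, 9.26 and 7.21, and Stat2 5.51, 6.80 and 4.96. Array 2 was the highest of the 3 in 21 of 31 antiviral genes, against 39.2% of all tested genes, and array 1 the lowest in 21, against 20% of all tested genes. Array 2 was the lowest in 45.9% of all tested genes. The spread was not limited to the antiviral genes. Their median SD was 0.25, against 0.34 over the antigen-processing genes. Over all tested genes it was 0.2, the largest of all siRNA groups. Array 2 also had the highest values of 3 genes that p53 activates: Cdkn1a read 10.52, 11.41 and 10.61, Mdm2 8.55, 9.74 and 8.65, and Phlda3 8.77, 9.75 and 8.29. Ccng1, another gene that p53 activates, did not follow this order and read 12.89, 12.81 and 12.76. The part of these differences in the spread of the antiviral genes was not tested. Without array 2, 2 antiviral genes were called lower. For Usp18, which was called in lincP21KD, the difference here was -0.23 ± 0.63 (adjusted p = 0.806).

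Among the antigen-processing genes Tap1, Psmb9 and Tap2 fell and Tapbp rose (38.6% of all tested genes were called in either direction). Tap1 read 8.59, 8.25 and 8.41 in the controls and 5.81, 6.57 and 6.16 after siP53, a fall by 2.24 ± 0.16 (adjusted p = 6.48e-07) that kept its call under all 20 alternatives. Psmb9 read 5.47, 5.27 and 5.33 in the controls and 4.8, 5.02 and 4.31 after siP53 (-0.65 ± 0.15, adjusted p = 0.00491). Both genes of the divergent pair were lower in every siP53 array than in any control, as were 20.8% of all tested genes.

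Tap2 read 5.39, 5.33 and 5.52 in the controls and 4.91, 5.27 and 4.66 after siP53 (-0.47 ± 0.17, adjusted p = 0.0489), a call lost under 12 of 19 alternatives. Tapbp read 9.16, 9.32 and 9.39 in the controls and 9.67, 9.81 and 9.73 after siP53 (0.45 ± 0.09, adjusted p = 0.0016), while its other probe set, with a mean of 6.71, had a difference of -0.03 and the mean of both was not called. Psmb8 read 5.18, 4.68 and 5.12 against 4.67, 5.24 and 5.04, and Psmb10 7.68, 7.99 and 7.90 against 7.69, 8.46 and 7.40. For these last 2 genes the groups overlapped and the differences were -0.01 and 0.00. The constitutive subunits Psmb5, Psmb6 and Psmb7 had differences between -0.68 and 0.30 with siP53. Of these 0 of 3 were called, and 2 had an unadjusted p below 0.05 in limma. Psmb6 read 11.75, 12.15 and 12.13 in the controls and 11.14, 12.12 and 10.73 after siP53.

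The difference between the 2 siP53 effects was tested directly, hnRNPKKD minus lincP21KD. Tap1 (-1.20 ± 0.21, adjusted p = 0.00124), Psmb9 (-0.82 ± 0.20, adjusted p = 0.0102) and Ifi35 (-0.64 ± 0.16, adjusted p = 0.0133) had a lower effect in hnRNPKKD, and Ifit2 (0.98 ± 0.19, adjusted p = 0.00196) a higher one. Thus 1 of 31 antiviral genes was called in each direction, and 2 of 6 antigen-processing genes lower, where 7.35% of all tested genes were lower and 7.14% higher. Without siP53 array 2 of hnRNPKKD, 7 antiviral and 5 antigen-processing genes were called lower, and without control array 2 of lincP21KD the counts were 0 and 1. Without control array 1 of lincP21KD 2 antiviral genes were called lower, and without control array 2 of hnRNPKKD 2 were called higher. For the other 29 antiviral genes a difference between the experiments did not pass the test in this fit. With array weights more antiviral genes were called in both directions, as given in the last section.

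**Figure D3:**
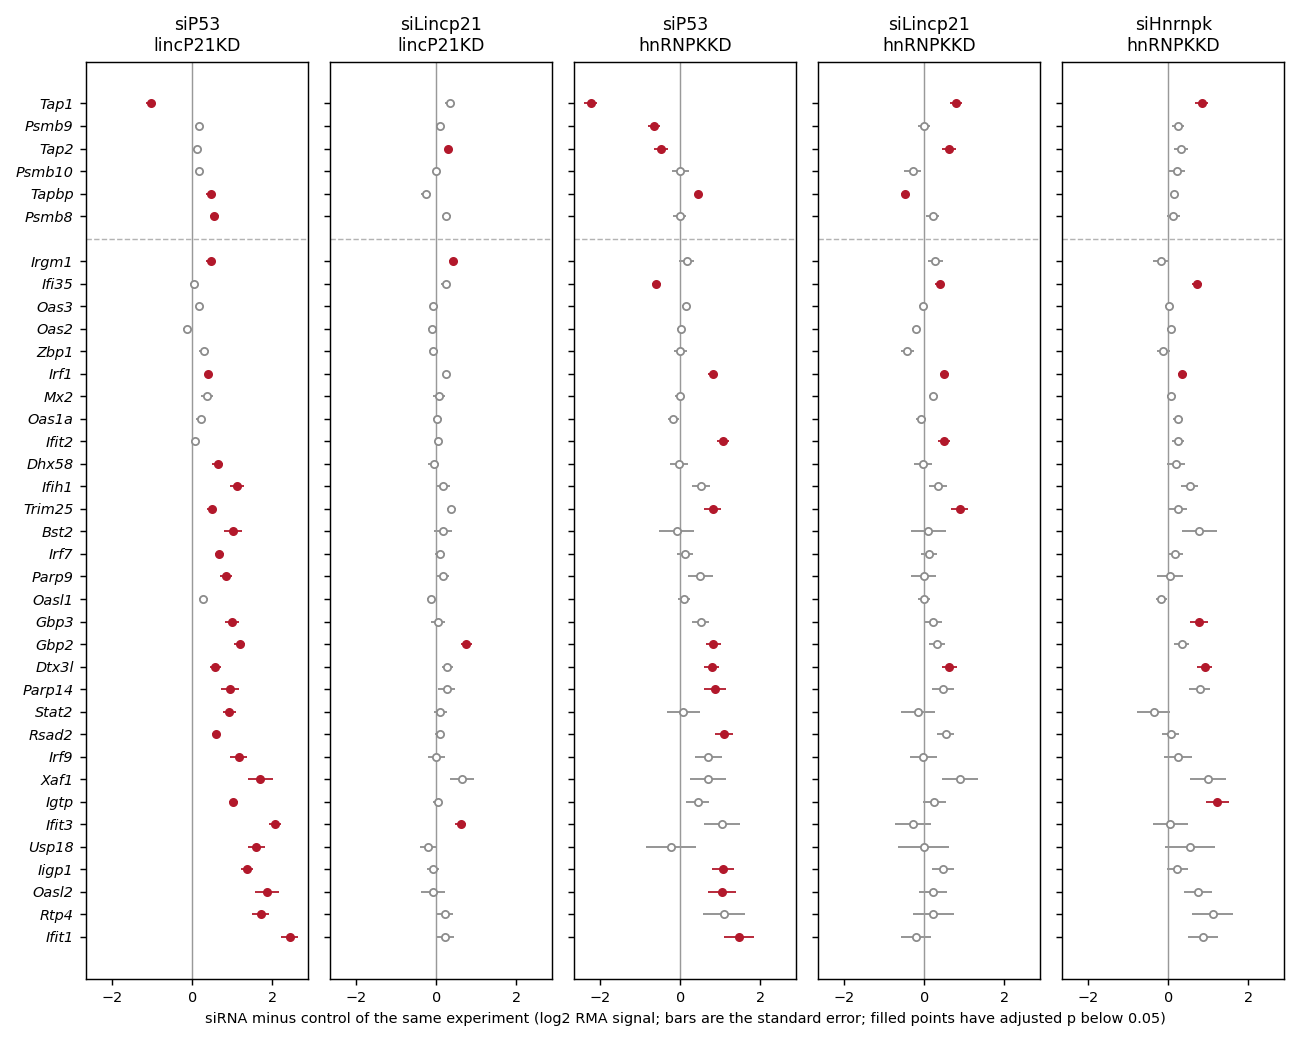
Difference of each siRNA from its own controls (log2 RMA signal, x axis) for the 37 tested members (rows) in 5 comparisons, with the standard error as a bar and filled points for an adjusted p below 0.05. The siP53 panel of lincP21KD has 23 filled antiviral points right of 0, and Tap1 lies left of 0 with siP53 in both experiments and right of it with the other siRNAs.

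The time course and the siRNA experiments share no arrays. Of the 19 antiviral genes that fell with AdenoCRE, 18 (94.7%) rose with siP53 in lincP21KD, which is 78.3% of the 23 that rose there. Over all tested genes 232 of 791 (29.3%) that fell with AdenoCRE rose with that siRNA, or 26.1% of 888. In hnRNPKKD 8 of the 19 (42.1%) rose, below the 51.3% of 791 over all tested genes. Those 8 were 80% of the 10 antiviral genes that rose there, against 16.6% of 2450 over all tested genes. Oasl1 was the gene among the 19 that was not called with siP53 in lincP21KD (0.28 ± 0.10, adjusted p = 0.111). Tap1 was called in the opposite direction to these genes in all 3 comparisons. Of the 23 antiviral genes that rose with siP53 in lincP21KD, 9 (39.1%) rose in hnRNPKKD, below the 67.9% of 888 over all tested genes. Those 9 were 90% of the 10 that rose in hnRNPKKD, against 24.6% of 2450 over all tested genes.

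**Figure D4:**
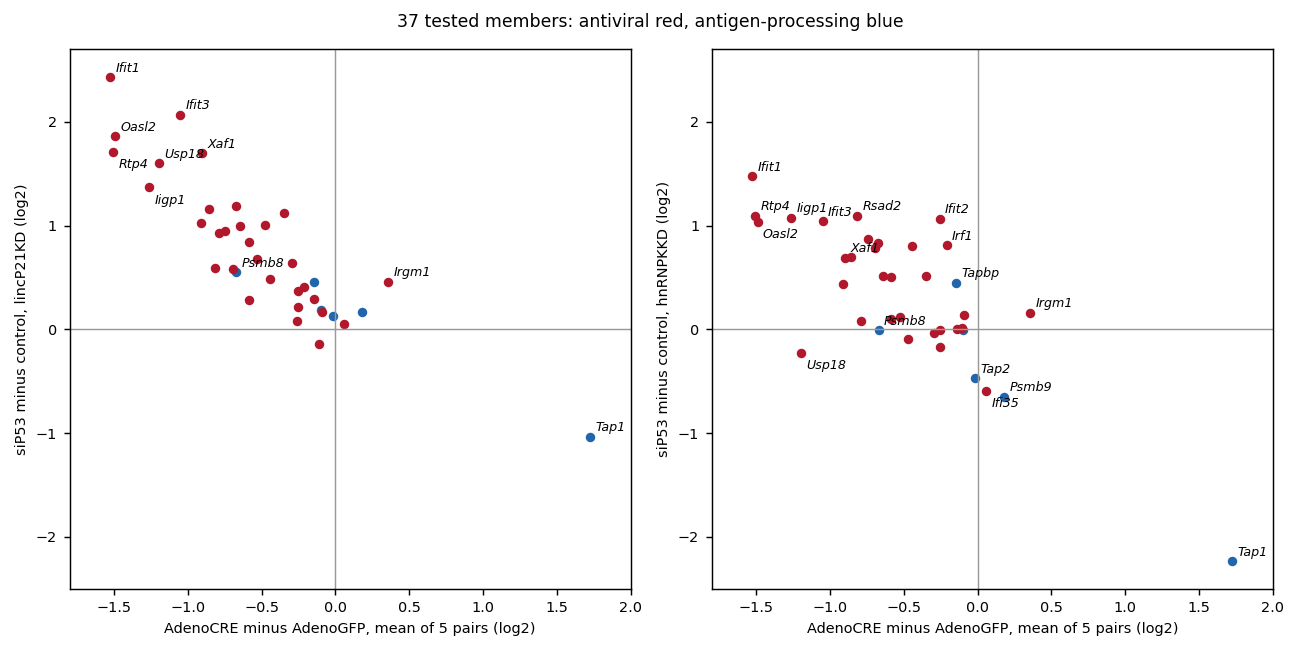
Difference with AdenoCRE (log2, x axis) against the difference with siP53 (log2, y axis) in lincP21KD (left) and hnRNPKKD (right), 1 point per tested member. Antiviral genes (red) lie mostly in the upper left, with Ifit1 at -1.53 and 2.43 on the left, and Tap1 (blue) lies far to the lower right at 1.73 and -1.04 or -2.24, with Psmb9 and Ifi35 also below and right of 0 in the hnRNPKKD panel.

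After siLincp21 the shares of antiviral genes called higher were near those over all tested genes in both experiments. In lincP21KD 3 of 31 antiviral genes rose and 0 fell (7.47% of all tested genes rose and 4.39% fell; higher calls were 63% of all calls, and 54.2% and 45.7% after quantile scaling and median centring), with a median of 0.10 and 6 genes at an unadjusted p below 0.05 in limma. Gbp2, a guanylate-binding protein, read 6.94 and 6.91 in the controls and 7.71, 7.63 and 7.71 after siLincp21 (0.75 ± 0.14, adjusted p = 0.00951). Ifit3 read 7.83, 7.62 and 7.76 after siLincp21 against 7.05 and 7.20 (0.61 ± 0.14, adjusted p = 0.0206), and Irgm1 read 9.18, 9.10 and 9.34 against 8.76 and 8.81 (0.43 ± 0.10, adjusted p = 0.0236). In these genes every siLincp21 array lay above both controls, as in 11 of the 31 (25.4% of all tested genes), and the reverse held for 1 (20.2%). Leaving out either control array gave a count of 0, and leaving out siLincp21 array 1 gave 1.

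Tap2 rose in lincP21KD, from 4.74 and 4.63 in the controls to 4.93, 5.05 and 4.96 (0.30 ± 0.08, adjusted p = 0.0324), at a level near the filter. That call was lost without either control array or without siLincp21 array 1 or 2. Tap1 read 8.02, 7.81 and 7.87 against 7.40 and 7.73 (0.33 ± 0.11, adjusted p = 0.0835). The values after siLincp21 were 10.27, 10.36 and 9.99 for Tapbp, 4.95, 4.90 and 4.88 for Psmb8, 5.47, 5.40 and 5.36 for Psmb9, and 9.07, 9.04 and 8.94 for Psmb10. None of these 5 genes was called, and 3 of 6 antigen-processing genes had an unadjusted p below 0.05.

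In hnRNPKKD 5 of 31 antiviral genes rose with siLincp21 and 0 fell (17.2% of all tested genes rose and 11.8% fell; higher calls were 59.2% of all calls, and 52.1% and 48.1% after quantile scaling and median centring), with a median of 0.23 and 8 genes at an unadjusted p below 0.05. Trim25, the ubiquitin ligase that activates RNA sensing, read 8.18, 8.43 and 8.41 in the controls and 8.87, 9.06 and 9.74 after siLincp21 (0.89 ± 0.22, adjusted p = 0.00833). Dtx3l read 6.67, 6.42 and 6.50 in the controls and 6.94, 7.06 and 7.47 after siLincp21 (0.63 ± 0.19, adjusted p = 0.0229). Ifit2 read 8.78, 8.61 and 9.13 after siLincp21 (0.50 ± 0.15, adjusted p = 0.0215), Irf1 8.67, 8.73 and 8.71 (0.50 ± 0.11, adjusted p = 0.00561) and Ifi35 12.27, 12.41 and 12.61 (0.38 ± 0.12, adjusted p = 0.0242). In these 5 genes every siLincp21 array lay above every control, as in 7 of the 31 (25.8% of all tested genes). The reverse held for 2 (21.3%). The count of genes that rose was 2 without control array 2 or without siLincp21 array 3, and 3 without control array 3. Leaving out siLincp21 array 1 or siHnrnpk array 3 gave 1 antiviral gene called lower.

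Tap1 rose with siLincp21 in hnRNPKKD, to 9.16, 9.17 and 9.29 (0.80 ± 0.16, adjusted p = 0.00223), and Tap2 to 6.18, 6.18 and 5.77 (0.63 ± 0.17, adjusted p = 0.0165). Tapbp fell, to 8.77, 8.77 and 8.87 (-0.48 ± 0.09, adjusted p = 0.00147). All 3 were without overlap with the controls, where 25.8% of all tested genes lay above all controls and 21.3% below. Of all tested genes 29% were called in either direction. The Tap2 call was lost without siLincp21 array 1 or 2 or control array 2, and the Tapbp call with the mean of its 2 probe sets. Psmb8 read 5.15, 5.24 and 5.22, Psmb9 5.35, 5.53 and 5.20, and Psmb10 7.61, 7.72 and 7.37 after siLincp21, with differences between -0.29 and 0.21 that did not pass. Between the experiments the siLincp21 effect differed for 0 of 31 antiviral and 0 of 6 antigen-processing genes in limma (8.14% of all tested genes, 3.51% lower and 4.63% higher), with 1 gene of each group at an unadjusted p below 0.05.

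After siHnrnpk 5 of 31 antiviral genes rose and 0 fell (14.1% of all tested genes rose and 12.8% fell), with a median of 0.24 and 9 genes at an unadjusted p below 0.05 in limma. Same-numbered siHnrnpk and control arrays deviated together, and with the replicate block the count was 11. Igtp, an immunity-related GTPase, read 5.36, 5.62 and 5.67 in the controls and 6.08, 6.88 and 7.35 after siHnrnpk (1.22 ± 0.29, adjusted p = 0.00708). Dtx3l read 6.95, 7.60 and 7.76 after siHnrnpk (0.91 ± 0.19, adjusted p = 0.00307), and Gbp3 read 4.77, 5.33 and 5.25 in the controls and 5.33, 6.02 and 6.31 after siHnrnpk (0.77 ± 0.22, adjusted p = 0.0209). Ifi35 read 12.60, 12.87 and 12.83 (0.72 ± 0.12, adjusted p = 0.000535) and Irf1 8.61, 8.58 and 8.47 (0.35 ± 0.11, adjusted p = 0.0371). Igtp, Dtx3l, Ifi35 and Irf1 lay above all controls, and Gbp3 touched them in array 1. In 5 of the 31 every siHnrnpk array lay above every control, and in 0 below. Of all tested genes 25.2% lay above and 24.2% below. The Irf1 call was lost under 9 of 22 alternatives.

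The siHnrnpk arrays stood far apart in the antiviral genes. Usp18 read 6.28, 8.17 and 9.18 after siHnrnpk, around its control values of 6.99, 7.28 and 7.72, and it had the largest SD of all 12674 genes in that group, 1.47. Rtp4 read 8.50, 10.22 and 10.78 against 8.22, 8.93 and 9.02. The median SD over the 31 antiviral genes was 0.46, against 0.11 over the 6 antigen-processing genes and 0.08 over all tested genes, and 17 of the 50 genes with the largest SD were antiviral members. Array 1 was the lowest in 28 of 31 antiviral genes and array 3 the highest in 25, against 39.6% and 35.1% of all tested genes. This order was not particular to siHnrnpk. Array 1 was also the lowest in 25 after siLincp21, 21 after siP53 and 19 in the controls (28.5%, 20% and 31.9% of all tested genes). Array 3 was the highest in 24, 9 and 13 (42.7%, 45.6% and 25%). Hnrnpk itself read 8.38, 8.34 and 9.94 in the siHnrnpk arrays and 12.68, 12.03 and 12.47 in the controls. Thus siHnrnpk array 3 kept the most of it and arrays 1 and 2 were alike. The part of this in the spread was not tested. Without siHnrnpk array 1, 11 antiviral genes were called higher, and without array 2 or 3, or without control array 1, there were 3.

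The antigen-processing genes did not share that spread. Tap1 read 9.22, 9.31 and 9.23 after siHnrnpk and rose by 0.84 ± 0.16 (adjusted p = 0.00174; 26.9% of all tested genes were called in either direction). With the mean of its 4 probe sets the value was 0.18 (adjusted p = 0.0523). Tap2 read 5.47, 6.02 and 5.72, Tapbp 9.35, 9.48 and 9.49, Psmb8 4.96, 5.13 and 5.28, Psmb9 5.59, 5.67 and 5.56, and Psmb10 7.91, 8.16 and 8.15. These 5 genes had differences between 0.13 and 0.32 and did not pass the test.

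**Figure D5:**
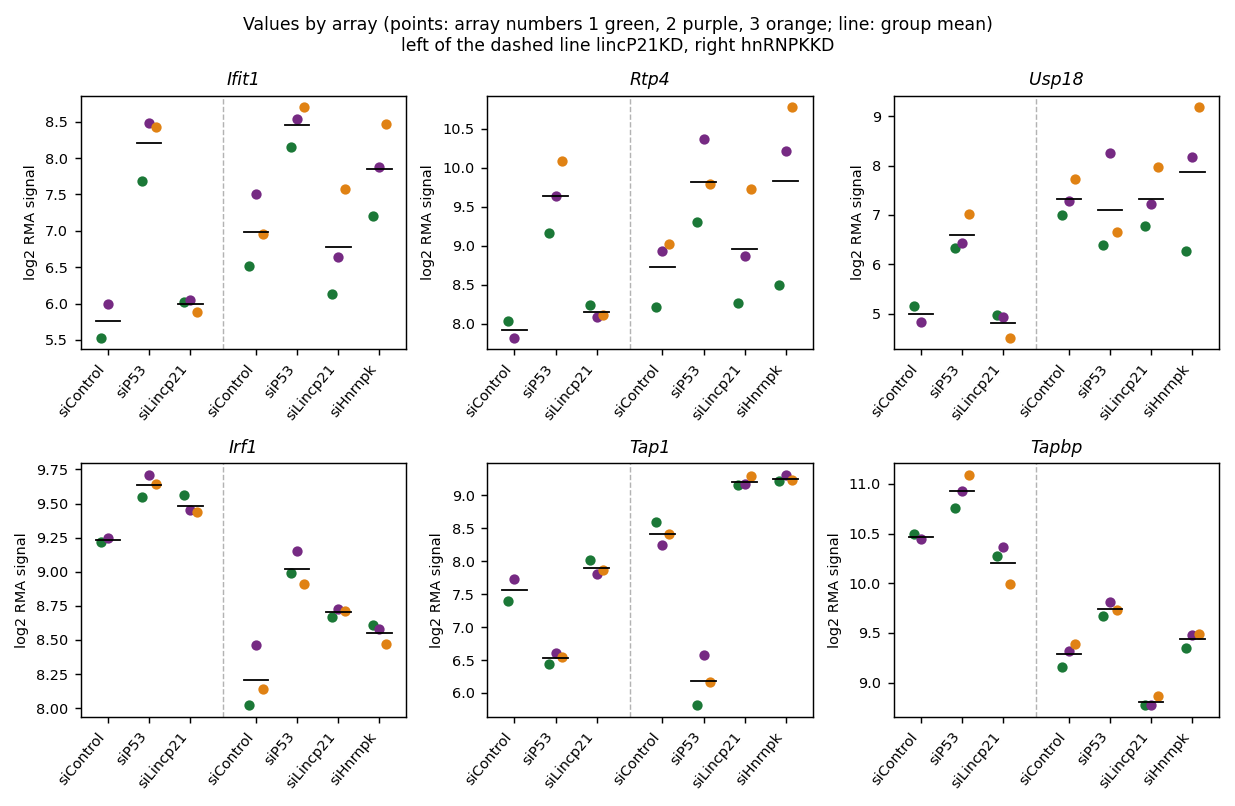
Log2 RMA signal (y axis) in each array of the siRNA groups (x axis) for 4 antiviral and 2 antigen-processing genes, with group means as lines. Usp18 spans 6.28 to 9.18 in the siHnrnpk group, and Tap1 lies between 9.22 and 9.31 there and between 5.81 and 6.57 after siP53 in the same experiment.

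The siRNA groups of an experiment share their controls, so siP53 was also set against the other siRNAs directly, a test added after the data had been seen. In lincP21KD 22 of 31 antiviral genes were higher with siP53 than with siLincp21 and 0 were lower (20.4% of all tested genes were called, 9.22% higher and 11.2% lower; 24 had an unadjusted p below 0.05), with Ifit1 at 2.21 ± 0.20 (adjusted p = 6.36e-05). In hnRNPKKD 4 were higher (Ifit1, Ifit2, Ifit3 and Irf1) and Ifi35 was lower, where 17.5% of all tested genes were higher and 21.3% lower, and with the replicate block the count of higher genes was 10. That count was 7 without siHnrnpk array 1 and 2 without siLincp21 array 2, and the count of lower genes was 3 without siP53 array 2 and 2 without siLincp21 array 1. Against siHnrnpk 5 were higher with siP53 (Rsad2, Iigp1, Ifit2, Trim25 and Irf1) and 3 lower (Ifi35, Igtp and Oas1a), where 22.5% of all tested genes were higher and 22.9% lower. The count of higher genes was 3 without siHnrnpk array 1 or 2 and 8 without array 3, and that of lower genes 5 without siHnrnpk array 1 and 1 without siHnrnpk array 2 or 3 or siP53 array 1. Tap1 was lower with siP53 by -1.37 ± 0.10 and -3.03 ± 0.16 against siLincp21 in the 2 experiments and by -3.07 ± 0.16 against siHnrnpk. Tapbp was higher with siP53 in the same 3 contrasts, by 0.72 ± 0.11, 0.93 ± 0.09 and 0.30 ± 0.09, the last not called without siHnrnpk array 1.

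The wider pathway was given by 5 further lists. Of 27 other interferon-stimulated genes tested, 9 fell and 2 rose with AdenoCRE, where 6.24% of all tested genes fell and 12.9% rose. With siP53 in lincP21KD 11 rose and 1 fell, where 7.01% rose and 5.74% fell. Cxcl10, an interferon-induced chemokine, fell by 1.34 ± 0.12 with AdenoCRE (adjusted p = 0.000703) and rose by 1.42 ± 0.18 with siP53 (adjusted p = 0.000941). Parp12 fell by 0.61 ± 0.08 and rose by 0.70 ± 0.12 in the same comparisons. Pml, which builds nuclear bodies and is also known as a p53 target, did the reverse, with 0.95 ± 0.16 (adjusted p = 0.00746) and -0.48 ± 0.09 (adjusted p = 0.00905). In hnRNPKKD 8 of the 27 rose and 3 fell with siP53 (Pml by -1.02 ± 0.10), where 19.3% of all tested genes rose and 19.2% fell. There 5 rose and 2 fell with siLincp21 (17.2% and 11.8% of all tested genes), and 6 rose and 2 fell with siHnrnpk (14.1% and 12.8%).

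The interferon genes Ifnb1 and Ifng lay below the filter and were not tested. Of 5 receptor genes 1 rose with AdenoCRE, Il10rb (0.59 ± 0.10, adjusted p = 0.00752), where 12.9% of all tested genes rose. With siP53 in lincP21KD none of the 5 was called in limma (0 of 5 at an unadjusted p below 0.05). Of 9 signalling genes 3 fell with AdenoCRE (Socs3, Jak2 and Ptpn2) and Tyk2 rose, where 6.24% of all tested genes fell and 12.9% rose. Jak2, the kinase of the type II receptor, fell by 0.54 ± 0.12 (adjusted p = 0.0166). With siP53 in lincP21KD Stat3 rose (0.41 ± 0.10) and no other of the 9 was called, where 7.01% of all tested genes rose. In hnRNPKKD 6 of 9 rose and Tyk2 fell (-0.37), where 19.3% rose and 19.2% fell, with Jak2 at 0.71 ± 0.12 (adjusted p = 0.000521). Jak2 also rose with siLincp21 in both experiments, by 0.61 ± 0.11 and 1.28 ± 0.12, and with siHnrnpk by 0.88 ± 0.12.

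Among 14 genes of nucleic acid sensing and interferon induction, 3 rose (Ikbke, Irf2 and Ticam1) and 1 fell with AdenoCRE, 1 rose with siP53 in lincP21KD, and 4 rose (Ddx58, Cgas, Irf5 and Rela) and 2 fell (Ikbke and Myd88) with siP53 in hnRNPKKD. Over all tested genes 12.9% rose and 6.24% fell, 7.01% rose, and 19.3% rose and 19.2% fell in these comparisons. Ddx58, the sensor RIG-I, fell by 0.38 ± 0.08 with AdenoCRE (adjusted p = 0.016) and rose by 0.68 ± 0.13 with siP53 in lincP21KD (adjusted p = 0.00657). Ikbke, a kinase of interferon induction, rose with AdenoCRE by 0.75 ± 0.22 (adjusted p = 0.0498), with a slope of 0.20 ± 0.03 per hour (adjusted p = 0.00643), and fell with siP53 in hnRNPKKD by 0.50 ± 0.12 (adjusted p = 0.00491). Of 9 class I genes 0 passed with AdenoCRE in limma (2 at an unadjusted p below 0.05), and 1 rose with siP53 in lincP21KD: Erap1, the peptidase that trims peptides for class I (0.56 ± 0.09, adjusted p = 0.00293). In hnRNPKKD 5 of the 9 fell with siP53, where 19.2% of all tested genes fell. They were Nlrc5, the activator of class I genes (-0.73 ± 0.17, adjusted p = 0.00454), Canx, Psme1, B2m and H2-K1, while Erap1 rose by 0.73 ± 0.11. In 3 of the 9 all siP53 arrays lay below the controls (20.8% of all tested genes). H2-K1 read 9.46, 10.01 and 9.17 after siP53 against 9.99, 10.01 and 10.11 in the controls. Psme1 read 9.73, 10.4 and 9.13 against 10.33, 10.48 and 10.53, and B2m 13.2, 13.59 and 13.13 against 13.71, 13.6 and 13.65. In these genes siP53 array 2 lay in or next to the control range. Nlrc5 had a slope of 0.17 ± 0.03 per hour in AdenoCRE (adjusted p = 0.0147), and rose with siLincp21 (0.63 ± 0.17) and siHnrnpk (1.45 ± 0.17) in hnRNPKKD.

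Some markers of other cell types moved with some of these comparisons. Of 10 macrophage markers 6 were tested and Adgre1, Ptprc, Aif1 and Itgam lay below the filter. With AdenoCRE 2 of the 6 rose, Cd68 and Cd14 (0.81 ± 0.17 and 1.29 ± 0.28; 12.9% of all tested genes rose), and 4 were not called, among them Csf1r (-0.20 ± 0.12) and Tyrobp (-0.25 ± 0.14). The summed linear signal of the 6 markers was 339 to 417 with AdenoGFP and 368 to 689 with AdenoCRE. With siP53 in lincP21KD 3 of the 6 fell, Cd68, Cd14 and Csf1r (5.74% of all tested genes fell), with sums of 708 to 725 in the controls and 485 to 507 after siP53. In hnRNPKKD 2 of the 6 fell, Cd68 and Cd14 (19.2% of all tested genes fell), with sums of 744 to 867 in the controls and 228 to 362 after siP53. In all 3 comparisons the sums of the macrophage markers mainly follow Cd68 and Cd14. Csf1r fell with siHnrnpk by 0.71 and with siLincp21 in lincP21KD by 0.47. Of 5 epithelial markers 3 were tested, and Cdh1 and Cldn4 lay below the filter. In each of the 3 siRNA groups of hnRNPKKD 1 of the 3 fell, Krt18, with differences of -3.16 with siP53, -3.02 with siLincp21 and -2.91 with siHnrnpk. Over all tested genes 19.2%, 11.8% and 12.8% fell in these comparisons. Epcam and Krt8 were not called in any of them. The sums over the 3 markers, 336 to 363 in the controls and 139 to 169 in the other groups, thus follow Krt18. In lincP21KD Krt18 differed by 0.15 with siP53 (not called). With siLincp21 there 1 of the 3 fell, Krt18 by 0.72 (4.39% of all tested genes fell). With AdenoCRE 2 of the 3 fell, Krt8 and Krt18, the latter by 1.05 (6.24% of all tested genes fell). The sums were 241 to 284 with AdenoGFP and 165 to 217 with AdenoCRE. Of the 10 fibroblast markers 3 fell and 1 rose with AdenoCRE (6.24% and 12.9% of all tested genes), Pdgfra with the largest difference, -1.88 ± 0.13. In lincP21KD 4 rose with siP53 (7.01% of all tested genes rose) and 4 with siLincp21 (7.47%). In hnRNPKKD 6 rose and 1 fell with siP53 (19.3% and 19.2% of all tested genes), with Pdgfrb higher by 1.75 ± 0.16. With siLincp21 5 rose and 2 fell (17.2% and 11.8% of all tested genes). With siHnrnpk 1 rose and 2 fell, near the shares over all tested genes (14.1% and 12.8%). Kdr, the endothelial marker above the filter, rose with siP53 in hnRNPKKD (0.45 ± 0.13). The part of these markers in the results on the antiviral and antigen-processing genes was not tested.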

How the data were processed

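RNA was measured on 30 Affymetrix arrays. The deposited values are log2 signal that the authors computed with RMA, per the submitters' processing notes; its version is not stated there, and the log2 scale was read from the values. They were used without further scaling. Of 45101 probe sets 34958 had 1 symbol, 932 had several and 9211 had none; 34754 had an updated entry (GRCm38.p6). Genes were tested with limma 3.58.1 (lmFit, eBayes) in R 4.3.3 on 12674 genes, with Benjamini-Hochberg adjustment over all of them and calls at an adjusted p below 0.05; rose and fell are used for calls alone. The virus effect had the 5 times as a block; slopes used hours within each virus; siRNA groups of an experiment shared 1 fit. The number of arrays limits the precision. Fits were tested on simulated data.

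The members, lists and naming rule were chosen with earlier results of these data known. Values by array are given for the antigen-processing genes and, per comparison, for the called antiviral genes with the 4 largest rises and falls plus 1 of each role. Other members and pathway genes named with a value were chosen after their values were seen, as were the contrasts between siRNAs. Same-numbered arrays deviated together in all 3 pairs for siHnrnpk and its controls (correlations 0.216, 0.166 and 0.209), a hint from the data and not from the labels. In hnRNPKKD the correlations were 0.357, 0.359 and -0.186 for siP53 and -0.157, 0.315 and -0.206 for siLincp21. In lincP21KD they were -0.218 and -0.211 for siP53 and 0.031 and 0.127 for siLincp21. Alternatives were other filters and scalings, the mean of probe sets, array weights, trended variances, a replicate block and leaving out arrays.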

Additional observations from a re-analysis of the deposited data

Results flagged for a closer look

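The effect of siP53 differed between the hnRNPKKD and lincP21KD experiments, by a direct test of the difference, for 4 members. Tap1 fell further in hnRNPKKD (difference of the effects -1.20 ± 0.21, adjusted p = 0.00124). Psmb9 was called lower in hnRNPKKD and not in lincP21KD (-0.82 ± 0.20, adjusted p = 0.0102; not called without control array 2 of lincP21KD), and so was Ifi35 (-0.64 ± 0.16, adjusted p = 0.0133). Ifit2 rose in hnRNPKKD and was not called in lincP21KD (0.98 ± 0.19, adjusted p = 0.00196). The experiments differ in their arrays and controls, and which of their differences goes with these values was not tested.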

How the results depend on the processing

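Over all alternatives 928 of 1032 counts stayed within 1.5 times, and of the called members' values 2077 of 2288 kept their call and 0 turned direction. The cause of each change below was not tested unless its construction shows it. Leaving out the lowest 60% of probe sets (limit 6.09, 20 members left, so fewer could be called) gave 11 antiviral genes lower and 0 antigen-processing genes lower with AdenoCRE, 3 antiviral slopes in AdenoCRE, 14 antiviral and 1 antigen-processing gene higher with siP53 in lincP21KD, 5 and 0 higher with siLincp21 there, 6 antiviral higher and 1 antigen-processing lower with siP53 in hnRNPKKD, 1 antigen-processing higher with siLincp21 and 3 antiviral higher with siHnrnpk, 1 antigen-processing lower in the difference of siP53 effects, 10 antiviral higher for siP53 against siLincp21 in lincP21KD, and 1 antigen-processing lower against siLincp21 and against siHnrnpk in hnRNPKKD.

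With the mean of probe sets the counts were 3 antiviral slopes in AdenoCRE, 0 antigen-processing lower and 1 higher with siP53 in lincP21KD, and 0 antigen-processing higher with siP53, lower with siLincp21, higher with siHnrnpk and higher for siP53 against siHnrnpk. Array weights gave 5 antiviral and 2 antigen-processing higher with siLincp21 in lincP21KD, 4 antiviral lower with siP53 in hnRNPKKD, 10 antiviral and 2 antigen-processing higher with siHnrnpk, 19 antiviral lower, 3 antiviral higher and 5 antigen-processing lower in the difference of siP53 effects, 1 antiviral higher and 1 antigen-processing lower in that of siLincp21, 3 antiviral lower and 11 higher for siP53 against siLincp21, and 8 antiviral and 5 antigen-processing lower against siHnrnpk. The share of all tested genes called was not computed with array weights. A change in the members alone thus cannot be told from a change in all calls. Trended and robust variances gave 1 antiviral gene higher with AdenoCRE and 0 antigen-processing higher with siLincp21 in lincP21KD. On the log2 of hours plus 1, 1 antigen-processing slope difference (Tap1) passed.

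Centring arrays on their medians moved the median of all genes with AdenoCRE from 0.04 to -0.07, and the share of higher calls from 67.4% to 45.2% (51.5% after quantile scaling), with siLincp21 from 63% to 45.7% in lincP21KD and from 59.2% to 48.1% in hnRNPKKD. With centring 0 antigen-processing genes were higher with siLincp21 in lincP21KD and 1 antiviral gene lower in hnRNPKKD, 3 antigen-processing genes were higher for siP53 against siLincp21 in lincP21KD, and 8 antiviral genes in hnRNPKKD (8 with quantile scaling, which gave 2 antigen-processing lower in lincP21KD).

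With the replicate block the counts were 11 antiviral higher with siHnrnpk (10 with only siHnrnpk and control arrays, added after seeing the data; 2 antigen-processing higher in that fit without the block), 1 antigen-processing higher with siP53 and 0 with siLincp21 in lincP21KD, 2 antigen-processing higher for siP53 against siLincp21 in lincP21KD and 10 antiviral in hnRNPKKD, and 8 antiviral higher for siP53 against siHnrnpk. It changed no other count by more than 1.5 times. The numbers are not shown to pair the arrays, and for siHnrnpk the data give only a hint of it.

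Leaving out 1 time gave 0 to 1 antigen-processing genes higher with AdenoCRE and 1 to 3 antiviral slopes. Leaving out 1 array gave 9 to 23 antiviral and 0 to 2 antigen-processing higher with siP53 in lincP21KD, 0 to 4 and 0 to 1 with siLincp21 there, 1 to 2 antiviral lower with siP53 in hnRNPKKD, 0 to 1 antiviral lower, 2 to 6 antiviral higher and 1 to 2 antigen-processing higher with siLincp21, and 3 to 11 antiviral higher with siHnrnpk. For the difference of siP53 effects it gave 0 to 7 antiviral lower, 1 to 2 higher and 1 to 5 antigen-processing lower. For siP53 against siLincp21 it gave 1 to 2 antigen-processing higher in lincP21KD, and 1 to 3 antiviral lower and 2 to 7 higher in hnRNPKKD. Against siHnrnpk it gave 1 to 5 antiviral lower, 3 to 8 higher and 0 to 1 antigen-processing higher. Where this left 1 control array in lincP21KD, that array was assumed to vary like the other groups. Members near the filter (Oas3, Dhx58, Iigp1, Irf7, Psmb9) have little signal over background, which limits what their differences can show.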
